A study of Homo sapiens with 47 samples.

Results

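The genes described here are 10 members of the YAP/TAZ and TEAD pathway, among 25739 gene rows of a single-cell RNA-seq table of circulating tumor cells (CTCs). They were chosen with results of these same values in view, above all the difference between CTCs and cultured cells, so their levels in that contrast are given as a description, and tests across genes are given only as counts over the whole table. Of the 10, ANKRD1, AJUBA, CCN1, CCN2, AMOTL2, LATS2 and AXL are known as transcriptional targets, YAP1 and WWTR1 encode the coactivators YAP and TAZ, and TEAD1 encodes a DNA-binding partner of both. All 10 were found by matching Ensembl identifiers to gene symbols, and each had a row of its own.

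The cells were MDA-MB-231-LM2 (LM2), a metastatic human triple-negative breast cancer line carrying GFP, and the study sought surface markers of CTCs. LM2 tumors were grown in the mammary fat pad of NSG mice injected as young adults, which lack mature lymphocytes and natural killer cells, and CTCs were taken from terminal blood by size-based microfluidics and picked one by one on their GFP signal after a CD45 stain to set leukocytes apart. The 37 CTCs with values came from mouse 5541 (2 CTCs), 5542 (4), 5545 (10), 5546 (17) and 5549 (4), the number in the name of each CTC being read as its mouse because the study used 5 mice, which no label states in words, while 4 further labelled CTCs were not analyzed here. The comparison group was 6 LM2 cells picked from tissue culture, without a mouse host, which were treated as 1 culture because no label separates them into cultures. All cells share the parental line and carry the same batch label. No label names an added drug or a further genetic change.

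The Hippo pathway is a chain of kinases in which LATS kinases phosphorylate YAP and TAZ and keep them in the cytoplasm. When the kinases are off, YAP and TAZ enter the nucleus, bind TEAD factors and raise the transcription of genes such as CCN1, CCN2 and ANKRD1. The pathway responds to cell attachment, spreading and mechanical tension, and it has been studied widely in breast cancer cells. RNA levels of the coactivators do not show their phosphorylation or where in the cell they are.

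Promoter sequence is shown first for CCN2 and ANKRD1, because TEAD factors bind DNA at the letters GGAATG and these windows hold more than 1 copy. The windows are the 250 bases upstream of the annotated start on the strand of the gene, from RefSeq on GRCh38.p14, with each copy in capitals. The CCN2 window is chr6:131951373-131951622 and the ANKRD1 window is chr10:90921088-90921337, both on the minus strand and free of annotated exons.
CCN2: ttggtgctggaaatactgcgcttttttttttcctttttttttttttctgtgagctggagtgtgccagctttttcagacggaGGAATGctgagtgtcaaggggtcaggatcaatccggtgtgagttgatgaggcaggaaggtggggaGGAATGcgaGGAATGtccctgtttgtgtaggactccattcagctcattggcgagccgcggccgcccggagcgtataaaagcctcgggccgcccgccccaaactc
ANKRD1: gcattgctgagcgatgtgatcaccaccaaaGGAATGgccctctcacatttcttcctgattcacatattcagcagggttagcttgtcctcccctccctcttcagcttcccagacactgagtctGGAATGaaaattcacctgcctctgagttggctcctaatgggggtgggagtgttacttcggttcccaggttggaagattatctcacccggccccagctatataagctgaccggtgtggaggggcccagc

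With positions counted back from the annotated start, CCN2 had 3 copies, beginning at -169, -104 and -95, and ANKRD1 had 2, beginning at -220 and -128. The table held 12 windows for 8 of the members and none for CCN1 and TEAD1, whose promoters were therefore not searched. Of the 12, 6 windows, of 6 members, contained GGAATG or its reverse complement CATTCC. AJUBA had 1 copy in 1 of its 2 windows, beginning at -59. AMOTL2 and AXL each had 1 copy of CATTCC, again in 1 of 2 windows, and YAP1 had 1 copy. The windows with a copy for AJUBA, AMOTL2 and AXL precede start sites inside the gene, and all 250 bases of the one for AJUBA lie in an annotated AJUBA exon. All 250 bases of the YAP1 window lie in an exon of an annotated lncRNA, ENSG00000277459. LATS2 and WWTR1 had no copy in their windows, which says only that these letters are missing there. Both WWTR1 windows also lie inside the gene. Among all 35116 promoter windows of this length in the table, 11.9% held at least 1 copy on either strand, 0.94% at least 2 and 0.0826% at least 3. Such matches describe the sequence and do not show binding.

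**Figure D1:**
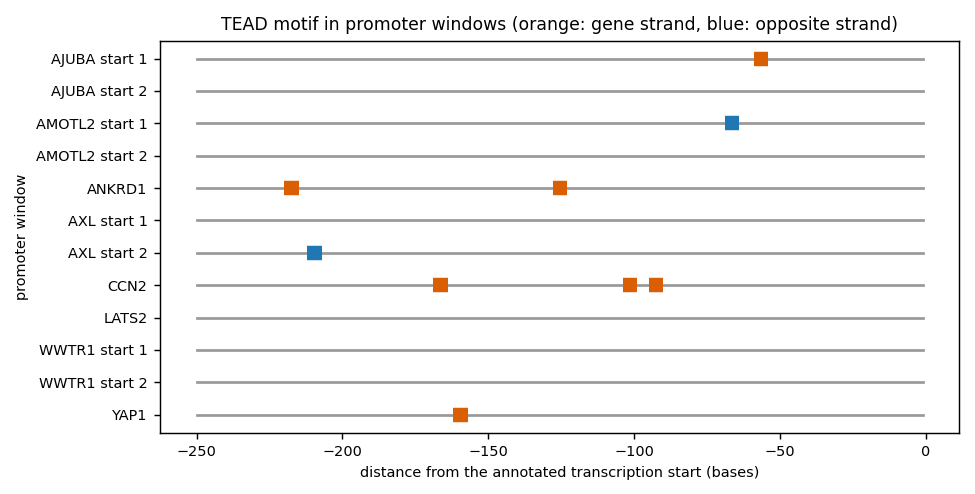
Position of the TEAD motif in each promoter window of the members, with distance from the annotated transcription start in bases on the horizontal axis and 1 line per window. Orange blocks are copies on the strand of the gene and blue blocks are copies on the opposite strand. CCN2 carries 3 copies, ANKRD1 2, and 6 of the 12 windows carry none.

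Values are reads on a gene divided by a size factor of the cell, here called normalized values. Reads on genes ranged from 469614 to 2041333 per CTC and from 776949 to 1186197 per cultured cell. Size factors gave cultured cells larger sums, 1161997 to 1783224, than CTCs, 442223 to 1169173. CTCs had 2313 to 12299 genes detected and cultured cells 7369 to 13679. CTC 5545-6 stood apart with the fewest genes, and only 1 of the 10 members had a read in it. In mouse 5546 the 9 libraries whose names carry the letter c had 7782 to 12299 genes and the 8 with the letter s had 4656 to 7538. The labels do not explain these letters.

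All 8 markers set for LM2 cells had reads in both groups, with sums of 5184 to 32112 in CTCs and 8335 to 14534 in culture, and VIM, which encodes vimentin, was detected in all 43 cells. Of the erythroid markers, 3 of 5 had rows (HBB, HBA2 and ALAS2). All 3 were at 0 in culture, while their sum ranged from 0 to 12509 in CTCs with a median of 986. Of the leukocyte markers 4 of 5 had rows, with sums of 10.3 to 2394 in CTCs and 75.3 to 1058 in culture, and PTPRC, which encodes CD45, had reads in 11 CTCs and in none of the cultured cells. Sums of the 5 platelet markers ranged from 0 to 77.3 in CTCs and from 0 to 3.23 in culture, where 4 of them were at 0. Endothelial markers, 3 of 5 with rows, reached 28.6 in CTCs and 37.1 in culture. Fibroblast markers, also 3 of 5, reached 190.03 and 34.4. The study aligned reads to the human genome and describes no step that set mouse reads apart. In CTCs, human reads and reads of the mouse host on such rows therefore cannot be told apart. Values without the CTCs that had PTPRC reads or high erythroid sums are given for ANKRD1, AJUBA, YAP1 and TEAD1.

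ANKRD1 and AJUBA had few or no reads in CTCs and had reads in every cultured cell. Both met a rule of size that asked for a difference of at least 4-fold, in the same direction, between the culture mean and the mean of the CTCs in each of the 5 mice, after adding 1 to each mean. The larger of the means also had to reach 8. Under this rule 487 of 9164 genes were lower in CTCs, which is 5.31%, and 6 were higher, which is 0.0655%. Of the 10 members 2 were lower and 0 higher. Since the members were picked from this contrast, nothing is read from that count.

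ANKRD1 (ENSG00000148677, GRCh38 chromosome 10 from 90912096 to 90921087, minus strand) encodes an ankyrin repeat protein found in nuclei and in muscle sarcomeres and is a standard readout of YAP and TAZ. In the cultured cells its normalized values were 814 in LM-3, 189 in LM-P3, 89.5 in LM-1, 79.1 in LM-P4, 5.02 in LM-2 and 1.72 in LM-10. LM-2 had 4 reads and LM-10 had 1 read, while the highest CTC, 5546-c1, had 18. Mice 5541 and 5542 had no read in any CTC. In mouse 5545 the lowest and the median CTC were at 0 and the highest, 5545-18, was at 2.93. In mouse 5546 the range was 0 to 5.83 with a median of 0, and in mouse 5549 the CTC 5549-3 had 3.93 and the other 3 had 0. The groups overlapped at the low end, since 2 cultured cells lay at or below the highest CTC and 7 CTCs lay at or above the lowest cultured cell.

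The mean was 0.501 ± 0.471 (SD over 5 mouse means) in CTCs and 196 ± 310 (SD over 6 cells of 1 culture) in culture, a 392-fold difference and a log2 ratio of -7.04 with 1 added. LM-3 carried much of it. Without that cell the culture mean was 72.8, the difference 145-fold and the log2 ratio -5.62, and without CTC 5549-3 the difference was 645-fold. For the mice without a read, a floor of 3 reads over all CTCs of the mouse put the culture at least 224-fold above mouse 5541 and at least 472-fold above mouse 5542. The other mouse means were 297-fold (5545), 228-fold (5546) and 200.04-fold (5549) below culture. Among the 9164 genes compared, 0 had a lower log2 ratio than ANKRD1. The CTCs gave 56 reads of ANKRD1 in all and the cultured cells 853.

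AJUBA (ENSG00000129474, chromosome 14 from 22971177 to 22982551, minus strand) encodes a LIM-domain adaptor that binds LATS kinases and is found at cell junctions. Its normalized values were more even in culture, with 258 in LM-2, 250.3 in LM-3, 141 in LM-1, 137 in LM-P4, 135 in LM-P3 and 6.90 in LM-10. No CTC of mouse 5541 or 5549 had a read, and in mouse 5542 only 5542-2 did, at 6.00. CTCs ranged from 0 to 12.7 in mouse 5545 and from 0 to 8.98 in mouse 5546, both with a median of 0. All cultured cells except LM-10 lay above every CTC. Means were 1.04 ± 0.996 over mice and 155 ± 92.3 over cultured cells, a 149-fold difference with a log2 ratio of -6.26. Only 2 of the 9164 genes had a lower ratio. The floor of 3 reads placed culture at least 177-fold above mouse 5541 and at least 246-fold above mouse 5549. The CTCs gave 83 reads of AJUBA and the cultured cells 663. AJUBA shares 50 exon bases with another annotated gene, ENSG00000259132.

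ANKRD1 was detected in 10 of 37 CTCs, or 27.0% (exact 95% binomial interval 13.8% to 44.1%), and AJUBA in 11, or 29.7% (15.9% to 47.0%). These intervals describe counting error alone. Several reads can copy 1 molecule, and CTCs from a shared mouse are related samples. Both genes were detected together in 6 CTCs, 1 of them in 9, and neither in 22. With every cell thinned to 469614 reads, ANKRD1 was detected in 8 CTCs and 5 cultured cells and AJUBA in 8 CTCs and 6 cultured cells. In mouse 5546, 5 of 9 libraries with c and 1 of 8 with s had ANKRD1 reads, and for AJUBA the counts were 6 and 1. Genes detected per CTC moved with both, with Spearman's ρ of 0.393 for ANKRD1 and 0.372 for AJUBA over 37 CTCs, and the part of this in the result was not tested. Leaving out the 3 CTCs with under 5000 genes gave log2 ratios of -7.003 and -6.19. Without the 11 CTCs with PTPRC reads they were -6.77 and -6.29, and without the 18 CTCs with erythroid sums above the median they were -6.71 and -5.69.

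**Figure D2:**
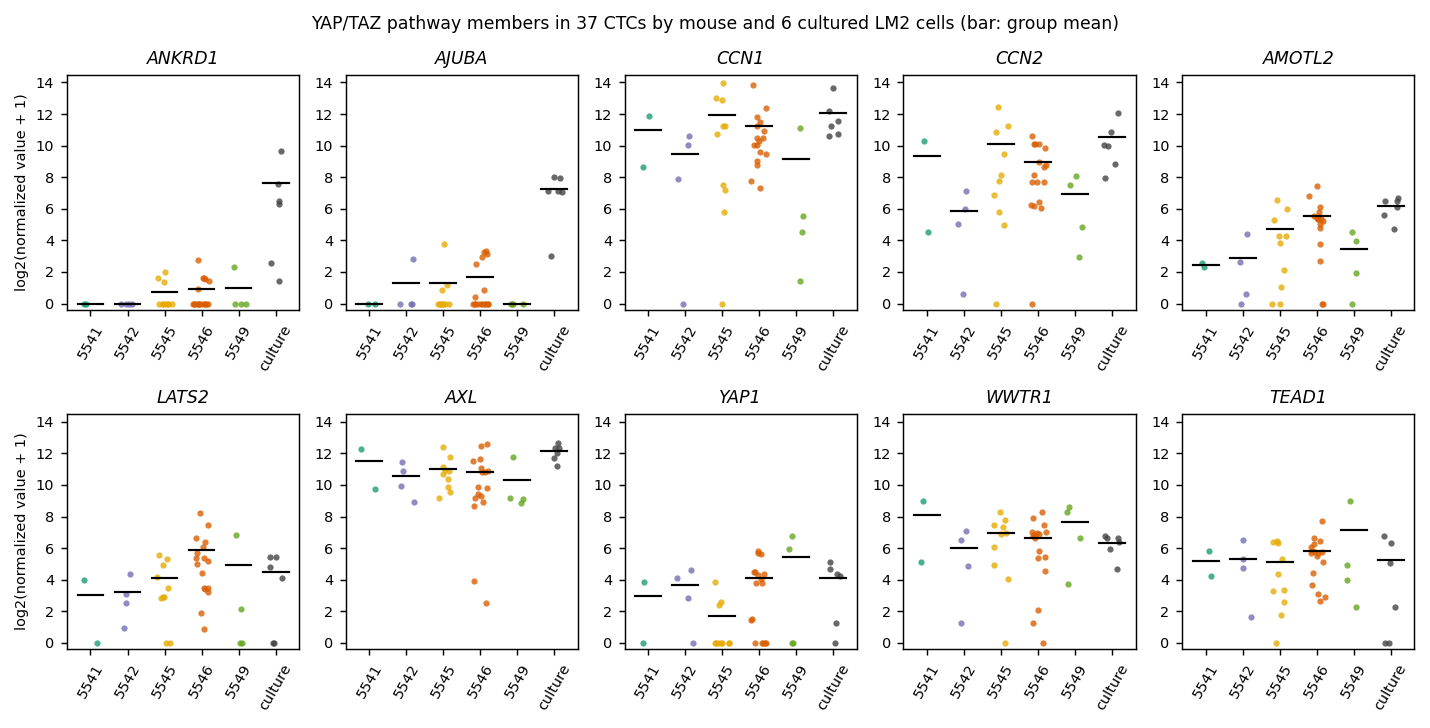
Normalized values of the 10 members in each cell, as log2(value + 1) on the vertical axis, for the CTCs of mice 5541, 5542, 5545, 5546 and 5549 and for the 6 cultured LM2 cells, with a black bar at each group mean. ANKRD1 and AJUBA have reads in 10 and 11 of the 37 CTCs and in every cultured cell, while each of the other 8 genes has reads in at least 21 CTCs. For AXL 28 CTCs lie below the lowest cultured cell on this scale, and 20 in counts scaled by depth alone.

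The values of all genes were shifted between the groups, since the median log2 ratio over the 9164 genes was -1.20. In counts per depth of each cell (CPM) it was -0.48, and -0.10 after TMM scaling, which are shifts of 0.72 and 1.10. Differences from the median of all genes are therefore given beside the plain ratios. Relative to the median of all genes, ANKRD1 was at -5.84 and AJUBA at -5.05. These differences were -5.91 and -5.22 in CPM and -5.82 and -5.38 after TMM scaling. Under these scalings the genes meeting the rule were 137 lower and 12 higher in CPM and 66 lower and 18 higher with TMM. ANKRD1 and AJUBA were among the lower ones in both.

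On reads summed per mouse, with the culture assumed to vary as the mice do, the edgeR quasi-likelihood test called 0 of 12288 genes after Benjamini-Hochberg adjustment (0% in either direction), and 205 had an unadjusted p under 0.05. DESeq2 on the same sums called 23 of 9160 genes with an adjusted p, 2 lower in CTCs and 21 higher. Since the members were chosen from this contrast and the culture is 1 sample, nothing is read from either test about them.

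CCN1 and CCN2, widely used targets, had reads in most CTCs, while 23 CTCs for CCN1 and 21 for CCN2 lay below the lowest cultured cell. In CPM those counts were 17 for CCN1 and 16 for CCN2. Both genes encode secreted matrix-associated proteins that bind integrins. CCN1 (ENSG00000142871, chromosome 1 from 85580761 to 85584589, plus strand) was detected in 35 of 37 CTCs and CCN2 (ENSG00000118523, chromosome 6 from 131948176 to 131951372, minus strand) also in 35, and both were in all 6 cultured cells. After thinning the CTC counts were 34 and 35.

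CCN1 means were 2060.4 in mouse 5541, 716 in 5542, 3860.1 in 5545, 2369 in 5546 and 571 in 5549. In mouse 5549 the median was 33.9 and CTC 5549-2 alone had 2216. Cultured cells had 12584 in LM-3, 4771 in LM-2, 3046 in LM-1, 2438 in LM-P3, 1676 in LM-10 and 1583 in LM-P4. Single CTCs ran from 0 to 16096 in 5545-7, and 2 CTCs lay above every cultured cell. The groups overlapped, with 14 CTCs at or above the lowest cultured cell. The log2 ratio of the mean of mice, 1915 ± 1347, to the culture mean, 4349.6 ± 4198, was -1.18, and 0.02 above the median of all genes. Without LM-3 the culture mean was 2703 and the ratio -0.50. Of all genes, 50.8% had a lower ratio than CCN1.

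CCN2 showed wider differences between mice. Its means were 639.5 in mouse 5541, 57.4 in 5542, 1121 in 5545, 489 in 5546 and 119 in 5549. The cultured cells had 4379 in LM-3, 1853 in LM-2, 1030.5 in LM-1, 998 in LM-P3, 449 in LM-P4 and 247 in LM-10. CTCs spanned 0 to 5548 in 5545-4, with a median of 207 over all 37, and 16 lay at or above the lowest cultured cell. The mean over mice was 485 ± 432 against 1493 ± 1521, a log2 ratio of -1.62 that changed to -0.91 without LM-3. Relative to the median of all genes it was -0.42. An antisense lncRNA, LINC01013, shares 278 of 2338 exon bases with CCN2, and reads were counted without strand, so the transcripts cannot be told apart there.

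In mouse 5546 the letters split these genes in opposite ways. Libraries with c had a CCN1 mean of 1248 and those with s 3631, in which 5546-s6 alone had 14932. For CCN2 the means were 663 with c and 294 with s. Reads of CCN1 and CCN2 together made up 0.191% of all reads of the median CTC, from 0% in 5545-6 to 1.84% in 5546-s6. Cultured cells had 0.144% to 1.31%, with the highest share in LM-3.

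AXL (ENSG00000167601, chromosome 19 from 41219223 to 41261766, plus strand), a receptor tyrosine kinase for the ligand GAS6, was the only member with reads in all 37 CTCs. Its mouse means were 2948 in 5541, 1545 in 5542, 2022 in 5545, 1782 in 5546 and 1279 in 5549, the narrowest spread of the targets relative to the mean. Cultured cells had 6511 in LM-P3, 5168 in LM-P4, 5105 in LM-2, 4133 in LM-10, 3342 in LM-1 and 2378 in LM-3. CTCs ranged from 4.85 in 5546-s9 to 6232 in 5546-c5, and 28 of 37 lay below the lowest cultured cell (20 in CPM). The log2 ratio of 1915 ± 640 to 4439 ± 1471 was -1.21, a difference of -0.01 from the median of all genes. The ratio was -0.53 in CPM and -0.15 after TMM scaling.

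AMOTL2 (ENSG00000114019, chromosome 3 from 134355347 to 134375479, minus strand) encodes an angiomotin-like protein that binds YAP and holds it out of the nucleus, and LATS2 (ENSG00000150457, chromosome 13 from 20973036 to 21061586, minus strand) encodes a kinase that phosphorylates YAP and TAZ. Both are targets that act back on the pathway. AMOTL2 means were 4.38 in mouse 5541, 6.54 in 5542, 25.1 in 5545, 45.7 in 5546 and 9.80 in 5549. In culture the values were 101 in LM-P3, 90.4 in LM-P4, 87.5 in LM-3, 67.7 in LM-2, 48.3 in LM-10 and 25.9 in LM-1. All mouse means were below the culture mean of 70.1 ± 28.6, with a log2 ratio of -1.88 (-0.68 from the median of all genes), although 16 CTCs reached at least the lowest cultured cell and 2 passed the highest. AMOTL2 shares 187 exon bases with the pseudogene RPL39P5.

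LATS2 did not follow AMOTL2. Its means were 7.31 in mouse 5541, 8.15 in 5542, 16.2 in 5545, 57.4 in 5546 and 29.5 in 5549. Cultured cells had 41.8 in LM-1, 41.5 in LM-P3, 27.4 in LM-P4, 16.4 in LM-3 and 0 in both LM-2 and LM-10. The log2 ratio was 0.15 between 23.7 ± 20.8 and 21.2 ± 19.0, and 1.36 above the median of all genes. Its sign was negative in 4 of 21 other settings, among them medians over cells (-0.85) and the data without mouse 5546 (-0.45). LATS2 was detected in 32 of 37 CTCs (30 after thinning) and in 4 of 6 cultured cells.

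WWTR1 (ENSG00000018408, chromosome 3 from 149517235 to 149736714, minus strand), the gene for TAZ, had the highest log2 ratio of the members on this scale, while TEAD1 was slightly higher in CPM. Mouse means were 274 in 5541, 63.8 in 5542, 122 in 5545, 101 in 5546 and 204 in 5549. Cultured cells had 107 in LM-1, 98.5 in both LM-P3 and LM-P4, 84.5 in LM-10, 61.5 in LM-3 and 25.1 in LM-2. In 4 of 5 mice the mean lay above the culture mean, and 19 of 37 CTCs lay above every cultured cell, while 8 lay below all of them. The mean was 153 ± 85.0 against 79.3 ± 31.0, a log2 ratio of 0.94 and a difference of 2.14 from the median of all genes, with 5.51% of genes higher. In CPM all 5 mouse means were above culture, with a mean of 183 ± 101 against 56.6 ± 19.9, and 23 CTCs exceeded every cultured cell. Without CTC 5541-5, where WWTR1 had a normalized value of 514, the log2 ratio of normalized values was 0.40 for WWTR1 and 0.61 for TEAD1. The ratio of WWTR1 did not reach 4-fold in each mouse. WWTR1 shares 756 of 8353 exon bases with the antisense lncRNA WWTR1-AS1.

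YAP1 (ENSG00000137693, chromosome 11 from 102110447 to 102233424, plus strand) was detected in fewer cells than WWTR1 in both groups. It had reads in 21 of 37 CTCs, or 56.8% (39.5% to 72.9%), and in 20 after thinning. Mouse means were 6.75 in 5541, 11.5 in 5542, 2.24 in 5545, 16.5 in 5546 and 41.7 in 5549. Cultured cells had 33.2 in LM-P3, 24.2 in LM-P4, 19.9 in LM-1, 17.6 in LM-2, 1.37 in LM-3 and 0 in LM-10. The means of 15.7 ± 15.5 and 16.0 ± 13.1 gave a log2 ratio of -0.03, which turned positive in 12 of 21 other settings (0.66 in CPM). It reached -0.73 without mouse 5549 and -0.71 without the CTCs with erythroid sums above the median. The erythroid setting also left out 5549-2 and 5549-6, the only CTCs of mouse 5549 with YAP1 reads. YAP1 and WWTR1 were both detected in 20 CTCs, 1 of the pair in 16 and neither in 1. An antisense lncRNA, ENSG00000254422, shares 628 exon bases with YAP1.

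TEAD1 (ENSG00000187079, chromosome 11 from 12674421 to 12944737, plus strand) was detected in 36 of 37 CTCs but in 4 of 6 cultured cells. Its means were 35.9 in mouse 5541, 39.0 in 5542, 33.3 in 5545, 54.9 in 5546 and 140.4 in 5549, where CTC 5549-2 alone had 513. Cultured cells had 107 in LM-1, 78.3 in LM-P3, 32.3 in LM-P4, 3.76 in LM-2 and 0 in both LM-3 and LM-10. The log2 ratio of 60.7 ± 45.3 to 36.97 ± 45.9 was 0.70. It was -0.04 without CTC 5549-2, 0.14 without the whole mouse and 1.37 without LM-1. Without the CTCs with erythroid sums above the median it was -0.09, and without those with PTPRC reads 1.10. The erythroid setting also left out CTC 5549-2, so it is not separate from the value without that CTC. In CPM the log2 ratio of TEAD1 was 1.70, with all 5 mouse means above culture.

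**Figure D3:**
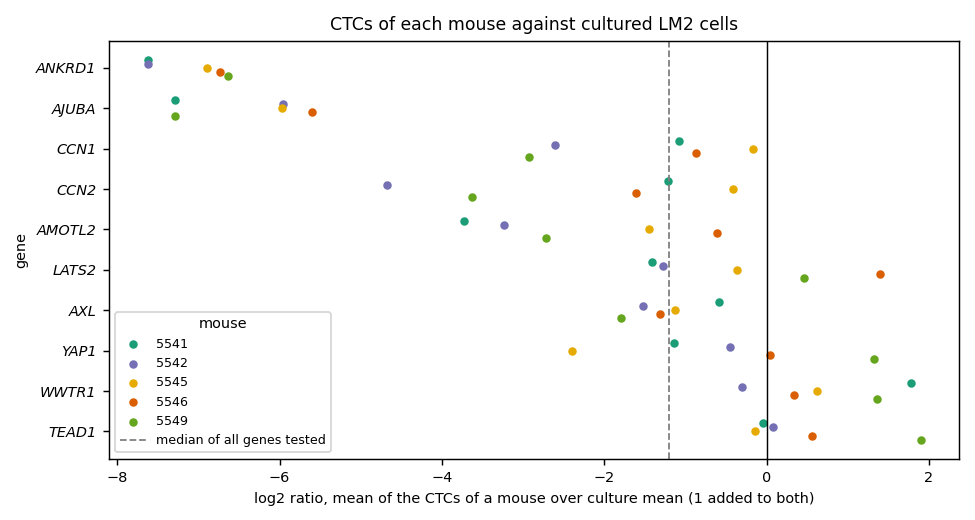
Log2 ratio of the mean of the CTCs of each mouse to the culture mean, with 1 added to both, for each member, and 1 colored point per mouse. The solid line marks 0 and the dashed line the median of all genes tested, -1.20. ANKRD1 and AJUBA lie at or below -5.59 in every mouse, and WWTR1 and TEAD1 lie right of the dashed line in every mouse.

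Comparing levels between genes needs values per length, here RPKM, reads scaled to the exon length of the gene and the depth of the cell. The order in CTCs, as the mean over mice, was CCN1 at 590.3, AXL at 448, CCN2 at 239, WWTR1 at 21.9, TEAD1 at 7.53, LATS2 at 5.22, AMOTL2 at 3.67, YAP1 at 3.01, ANKRD1 at 0.426 and AJUBA at 0.216 RPKM. None of the 9 neighboring pairs in this order had mouse means that did not overlap. In culture CCN1, AXL and CCN2 also led with 889.5, 645 and 484 RPKM, followed by ANKRD1 at 81.8 and AJUBA at 19.9. ANKRD1 thus ranked 4 in culture and 9 in CTCs, and AJUBA 5 and 10. WWTR1 was 7.28 times the level of YAP1 in CTCs and 3.67 times in culture, per length. These are ratios of means, and the mice differed widely. WWTR1 and YAP1 were at 16.2 and 0.402 RPKM in mouse 5545, 8.95 and 2.31 in 5542, and 30.8 and 7.69 in 5549.

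Read by role, 6 of the 7 targets had a mean below the culture mean in every mouse, all but LATS2, and 0 of the 3 genes for coactivators and TEAD1 did. In CPM this held for ANKRD1 and AJUBA alone, since 1 mouse mean lay above culture for each of CCN1, CCN2, AMOTL2 and AXL. Over all 9164 genes 5526 were below culture in every mouse, which is 60.3%, and 145, or 1.58%, were not below it in any. The median log2 ratio was -1.62 for the 7 targets and 0.70 for the other 3, beside -1.20 over all genes. The members were picked from this contrast, so nothing is read from this split by role.

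Beyond the members, 4 lists of related genes were drawn up, with 52 genes in all, of which 47 had rows and 35 were high enough to be compared. Of these 35, 3 were lower and 0 higher by the rule of size, beside 5.31% and 0.0655% of all genes, and their median log2 ratio was -1.05. Of 20 other targets 18 were compared, 2 were lower and the median was -0.87. For 8 of the 18 (44.4%) the mean was below the culture mean in every mouse, beside 60.3% of all genes. F3, which encodes tissue factor, the starter of blood coagulation, had 58.9 ± 48.0 in CTCs against 575 ± 467 in culture, a log2 ratio of -3.27. NUAK2, a kinase related to AMPK, had 0.817 ± 1.17 against 20.6 ± 15.7, a ratio of -3.57. F3 did not meet the rule without LM-3, with medians over cells, in CPM, after TMM scaling, after thinning or without the CTCs with high erythroid sums. NUAK2 missed it with a pseudocount of 8, and neither met an 8-fold rule.

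GADD45A, a growth arrest and DNA damage gene, was at 296 ± 313 in CTCs against 48.9 ± 39.1 in culture. Its log2 ratio of 2.57 was above 0 in all 5 mice but not 4-fold in each of them. Mouse means ran from 86.3 to 848, and the highest CTC had 3162. Of the 18 other targets compared it was the only 1 not below culture in any mouse, beside 1.58% of all genes.

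Among Hippo kinases and upstream regulators 20 of 21 had rows and 14 were compared, with a median of -0.95. Of these 1 was lower by the rule of size, beside 5.31% of all genes. For 8 of the 14 (57.1%) the mean was below the culture mean in every mouse, beside 60.3% of all genes. WWC1, which encodes the scaffold KIBRA, had 0.649 ± 1.39 in CTCs against 18.5 ± 15.8 in culture, a log2 ratio of -3.57. It did not meet the rule without LM-2, without the libraries with s, with a pseudocount of 8, in CPM or after TMM scaling. An 8-fold rule was not met either. Ordered by the larger of the CTC and culture means, the highest were STK4, the kinase MST1 upstream of LATS, at 84.0 ± 31.5 against 151 ± 77.2, MOB1A, a coactivator of LATS, at 51.7 ± 30.1 against 137 ± 124, and MAP4K4, a kinase that can also act on LATS, at 123 ± 45.9 against 57.9 ± 48.2. MAP4K4 was above culture in all 5 mice, the only 1 of the 14 not below it in any, beside 1.58% of all genes.

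Of 7 other TEAD factors and cofactors 5 had rows and 3 were compared (TEAD3, TEAD4 and VGLL4), with 0 lower, 0 higher and a median of -1.35. TEAD3 had 10.1 ± 11.8 in CTCs against 27.3 ± 32.3 in culture, TEAD4 5.06 ± 3.53 against 25.2 ± 21.7 and VGLL4 10.02 ± 4.57 against 14.0 ± 13.5. Of 4 other CCN family genes 2 had rows and 0 were high enough to compare.

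**Figure D4:**
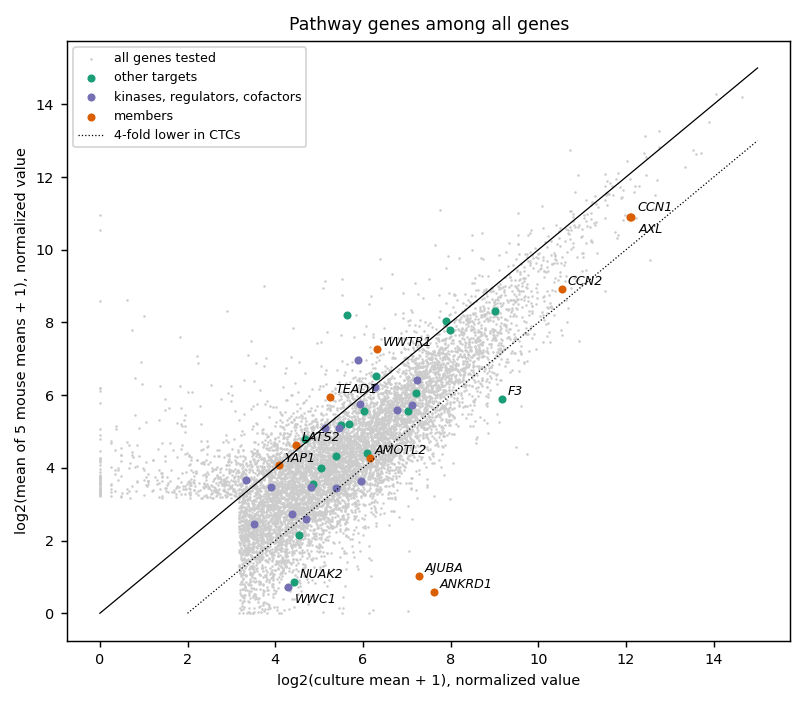
Mean normalized value in culture (horizontal) and mean of the 5 mouse means (vertical), both as log2(value + 1), for all 9164 genes tested in grey, the members in orange and the other pathway genes in green and purple. The solid line marks equality and the dotted line values 4-fold lower in CTCs. ANKRD1 and AJUBA lie far below the dotted line, while the other members lie within or above the cloud of all genes.

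Whether the members were high in the same CTCs was asked by Spearman's ρ across the 37 CTCs, given without a p because the points share mice and libraries. For the 8 members detected in at least 50% of the CTCs, the median over 28 pairs was 0.149, and 0.176 after centring ranks within mouse and library letter. Over all pairs of the 7014 genes detected that widely the medians were 0.114 and 0.0929. Among the members, single pairs differed more than these medians did.

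The highest pair was CCN1 with CCN2 at 0.575, and 0.581 after centring. It was 0.842 among the 10 CTCs of mouse 5545, 0.159 among the 17 of mouse 5546 (0.517 with c, 0.0476 with s) and 0.943 among the 6 cultured cells. CCN2 with AMOTL2 gave 0.540 over all CTCs, 0.766 in mouse 5545 and 0.00981 in mouse 5546. AJUBA with CCN2 was 0.497, although AJUBA had reads in only 11 CTCs. YAP1 with WWTR1 was at -0.00674, CCN1 with AXL at 0.0748 and AXL with TEAD1 at -0.110. ANKRD1 gave 0.0233 with CCN2 and 0.248 with AJUBA. CTCs without a read of either ANKRD1 or AJUBA had a median CCN1 of 1041, reaching 16096, and those with a read of either 1455. The medians of CCN2 were 157 and 439, and those of genes detected 7157.5 and 9294, whose part in these values was not tested.

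**Figure D5:**
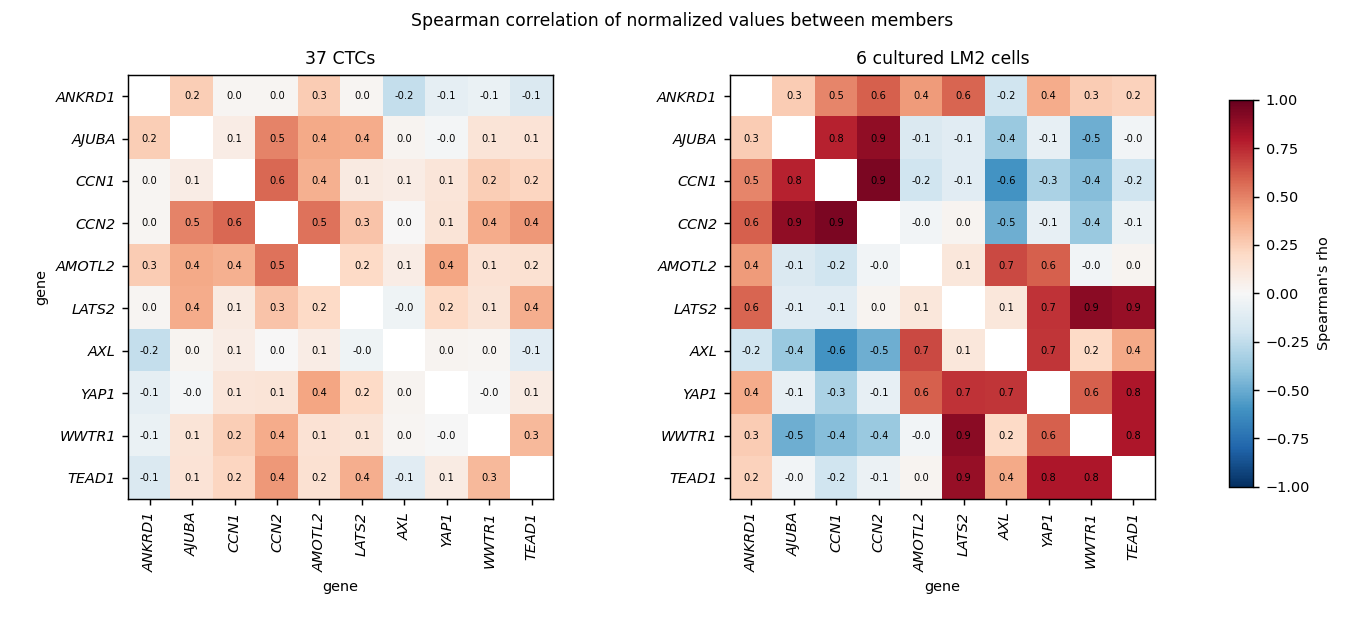
Spearman's ρ of normalized values between each pair of members, colored from -1 (blue) to 1 (red), over the 37 CTCs on the left and the 6 cultured LM2 cells on the right. In CTCs the highest value is 0.575 for CCN1 with CCN2 and the median of the 45 pairs is 0.127, and the right panel rests on 6 points per pair.

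The genes most like each member across CTCs, among those detected in at least 50% of CTCs, were mostly not pathway genes. CCN2 was closest to PLK2 (ρ = 0.823), a stress-responsive kinase, then HES1 (0.726), a Notch target, and SPRY1 (0.713), a feedback inhibitor of receptor tyrosine kinase signaling. For CCN1 they were ZNF362 (0.591), HES1 (0.577) and CCN2 itself. AMOTL2 was closest to BDNF (0.656), MBNL1 (0.652) and KLF4 (0.636). LATS2 was closest to APLP2 (0.727), MFSD6 (0.681) and VANGL1 (0.678), and AXL to SAE1 (0.761), CYSTM1 (0.714) and STARD3 (0.685). YAP1 was closest to FCF1 (0.696), UBE3A (0.685) and MIR4435-2HG (0.594). WWTR1 was closest to ZFR (0.662), ZYX (0.620), which encodes the adhesion protein zyxin, and LZTS2 (0.566). TEAD1 was closest to LAMA5 (0.695), a laminin chain, and TMEM9 (0.684). Each is the highest of many values, so such maxima are large by selection, and only CCN1 had another member among its nearest 3.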

How the data were processed

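The authors deposited a signal per gene and cell, namely read counts scaled by DESeq2 size factors. The authors aligned SMARTseq2 reads with STAR 2.7.10a to GRCh38 and GENCODE 38, kept uniquely mapped reads, counted them without strand, removed CTCs with poor mapping or many mitochondrial reads, and estimated size factors with DESeq2 1.42.1. SMARTseq2 carries no molecular identifiers.

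Dividing by the smallest nonzero value of a cell gave whole numbers for 100% of values (tolerance 0.001), and these reads served for depth, CPM, thinning to 469614 reads and summed tests. Depth ranged from 469614 to 2041333 reads. Symbols matched 25565 of 25739 identifiers, with coordinates from GENCODE 44. Cells were grouped by labels, with the number in a CTC name read as its mouse.

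The members, lists and tests were chosen with earlier results of these data known. Genes named are the 10 members, list genes past the rule of size, the 3 highest of each list by the larger of the CTC and culture means, and the 3 genes most correlated with each member detected in at least 50% of CTCs. Of the 4 other lists, 3 genes met the rule. CTCs and culture were compared by that rule. The alternatives were other pseudocounts, folds, minimum means, scalings, averages and depths, leaving out libraries, mice and cultured cells, edgeR and DESeq2. Leaving out CTCs by genes detected, PTPRC or erythroid markers was chosen after seeing the data. Marker lists covered LM2, leukocyte, platelet, erythroid, endothelial and fibroblast genes. The rule of size, the edgeR test on summed reads and Spearman's ρ were tried on simulated data. Python 3.11.15, numpy 2.4.6, pandas 2.3.3, scipy 1.17.1, matplotlib 3.10.9, R 4.3.3, edgeR 4.0.16 and DESeq2 1.42.0 were used. The 4 labelled CTCs without a column were not analysed here. Some genes that this rule names are not reported here.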

Additional observations from a re-analysis of the deposited data

Results flagged for a closer look

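In 50 groups of 4 to 10 values of the members, 13 had a single value far from the others by Dixon's criterion. Chance flags about 1 in 20 groups of normally distributed values, and the rate for skewed values such as these was not measured. In mouse 5549, CTC 5549-2 stood apart for CCN1 (2216, next 45.4), LATS2 (115, next 3.36) and TEAD1 (513, next 29.7), CTC 5549-5 for AXL (3521, next 576) and CTC 5549-3 for ANKRD1 (3.93, all others 0). Among mouse means, that of TEAD1 in mouse 5549 stood apart at 140.4, next to 54.9.

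In mouse 5545, CTC 5545-4 stood apart for AJUBA (12.7, next 1.26) and CCN2 (5548, next 2411), and CTC 5545-7 for CCN1 (16096, next 8113) and YAP1 (13.3, next 4.89). In mouse 5542, CTC 5542-2 was the only one with AJUBA reads, at 6.00. In culture LM-3 stood apart for ANKRD1 (814, next 189) and CCN1 (12584, next 4771).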

How the results depend on the processing

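ANKRD1 and AJUBA met the rule of size under every alternative to it that was run, those added later included, and 0 members were higher. The alternatives used the same values from which the members were chosen, so this describes the settings and is not independent support. The tests on summed reads gave 0 (edgeR) and 1 (DESeq2) lower members, from which nothing is read because the members were chosen from this contrast and the culture is 1 sample. Genes lower in CTCs numbered 487 overall. There were 2298 with a 2-fold rule, 80 with an 8-fold rule, 144 with a pseudocount of 8, 1357 with medians over cells, 137 in CPM, 66 with TMM, 0 by edgeR and 2 by DESeq2. The 6 higher genes became 24 with 2-fold, 17 and 3 with pseudocounts of 0.1 and 8, 2 with medians, 12 in CPM, 18 with TMM, 0 by edgeR and 21 by DESeq2. Of the other pathway genes, 3 were lower. This count was 7 with 2-fold, 0 with 8-fold, 1 with a pseudocount of 8, 5 with medians, 1 in CPM, 1 with TMM and 0 by either test. Leaving out each mouse or cultured cell in turn gave 397 to 757 lower genes overall (757 without mouse 5545), 5 to 13 higher (13, 12 and 10 without mice 5541, 5546 and 5549), 2 lower members each time and 2 to 4 other lower pathway genes. The median correlation of 0.149 ranged from 0.129 to 0.232 with each mouse left out, and was 0.256 without the s libraries of mouse 5546 and 0.118 without CTCs with under 5000 genes, beside 0.114 over all genes. The cause of these changes was not tested, beyond fewer samples or another threshold.

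No paired analysis was possible because numbers in the labels name cells within a mouse or the culture and link no CTC to a cultured cell. With 1 culture, no replicate supports the comparison. A gene without reads in a CTC was not detected at these depths, which does not show that it was absent.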
